A study of Mus musculus with 9 samples.

Results

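Pth, Gcm2 and Casr are marker genes of the parathyroid glands, small endocrine glands that lie against or inside the thyroid, and were read in RNA sequencing of whole mouse thyroid. They are the 3 members of a list of gene symbols, all 3 of which were found among the 33924 named genes of the count table. Pth encodes parathyroid hormone, which raises blood calcium. Gcm2 encodes the transcription factor that the parathyroid lineage needs to form and persist. Casr encodes the calcium-sensing receptor, through which a rise in blood calcium holds back hormone release; it is also known from kidney and from the calcitonin-producing C cells of the thyroid.

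The 9 libraries fall into 3 groups of 3 by genotype label: wild type, Arid2 KO and Smarcb1 KO. Both genes code for SWI/SNF subunits, parts of complexes that remodel chromatin, and the study asked how thyroid tissue that lacks one of them differs from wild-type tissue. The strain, age, sex and the driver of each deletion are not given in the sources used here, and neither is whether each library is from its own animal. The p-values therefore reflect no more than how much the libraries of a group vary, which may be technical. Replicate numbers are names in accession order. The targeted genes were read over whole genes and check the labels only weakly. Arid2 stood at 59.9 to 94.6 CPM (counts scaled to library size and composition) in the Arid2-labelled libraries against 67.8 to 75.0 in wild type. Smarcb1 stood at 47.5 to 59.4 CPM in the Smarcb1-labelled libraries, below the 65.9 to 71.7 CPM of wild type without overlap, but did not pass (log2 fold change -0.36, SE 0.11, edgeR adjusted p = 0.0651). The groups are therefore named by their labels.

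Total counts ran from 33666251 to 89553766, and the Arid2-labelled libraries were the deepest. The 12 marker genes of thyroid follicular cells summed to at least 229400 CPM in each of the 9 libraries; Slc26a4 among them had 1 to 27 counts. Thymocyte markers stood apart in Arid2-labelled replicate 1, where 10 genes summed to 1298 CPM, and in Smarcb1-labelled replicate 2, at 225.2 CPM, against 9.99 to 29.4 CPM in the other libraries. Counts of 0 are given with the level that 3 counts would have, which covers counting error only, since no molecular identifiers are named in the sources used here and several reads can stem from 1 molecule.

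The RefSeq stretches upstream of Pth and Casr are shown because the levels of these genes moved together across the libraries. Both are on the minus strand of GRCm38.p6, printed 5′ to 3′. They cover the part of the window before the RefSeq start that lies outside annotated exons. The Pth stretch is chr7:113388673-113388823 and the Casr stretch chr16:36562142-36562384. For Gcm2 the window lies within the annotated gene, and no stretch is shown. Capitals mark matches to the letters of a TATA box (TATAAA) or of a GATA site (AGATAA, here on the opposite strand). The TATAAA letters begin 249 bases before the RefSeq start of Pth, and the GATA letters 133 bases before it. Whether either match is used was not tested.
Pth: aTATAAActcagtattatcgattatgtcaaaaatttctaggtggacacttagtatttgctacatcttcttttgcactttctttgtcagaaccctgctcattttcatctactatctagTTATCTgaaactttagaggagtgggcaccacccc
Casr: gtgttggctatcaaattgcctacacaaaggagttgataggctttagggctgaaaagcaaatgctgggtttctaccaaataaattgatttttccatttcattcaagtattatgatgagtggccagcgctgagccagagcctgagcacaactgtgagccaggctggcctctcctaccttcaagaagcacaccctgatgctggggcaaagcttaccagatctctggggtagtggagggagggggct

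Windows of equal length before each gene's RefSeq start were searched on both strands. The GATA site was found 1 time each in the windows of Pth and Gcm2 and not in that of Casr. It is present in 9.99% of the 32851 RefSeq windows. The Gcm2 window lies within the annotated gene, so its match is not upstream of the whole gene. The TATA box letters were found 1 time before Pth and are present in 12.4% of windows. The 8-base site bound by GCM factors, ATGCGGGT, was in none of the 3 windows and is in 0.207% of all windows. The cyclic AMP response element TGACGTCA (1.55% of windows) was in none of the 3 either. No match says only that these letters are not in these windows.

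Per kilobase of transcript, Pth had the highest level of the 3 genes in 7 of the 9 libraries. Wild-type replicates 1, 2 and 3 read 1199, 4172 and 0.0297 CPM, Arid2-labelled ones 1532, 1436 and 0.129 CPM and Smarcb1-labelled ones 16750, 5892 and 9307 CPM. All 3 Smarcb1-labelled libraries thus lay above all other libraries, and 1 library each of the wild-type and Arid2-labelled groups held almost no Pth RNA. Those 2 libraries had 1 and 8 Pth counts, against 39541 to 658423 in the other 7. Pth ranked 3rd, 5th and 4th by count among all genes in Smarcb1-labelled replicates 1, 2 and 3, with 1.65%, 0.629% and 0.89% of the counts. In whole tissue, fewer cells of a type and less RNA per cell cannot be told apart.

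Gcm2 had counts in the same 7 libraries and 0 in the other 2. Wild-type replicates 1, 2 and 3 read 7.89, 40.7 and 0 CPM, Arid2-labelled ones 15.9, 11.2 and 0 CPM and Smarcb1-labelled ones 68.3, 55.2 and 51.9 CPM. The 0 counts allow up to 0.0890 CPM in wild-type replicate 3 and 0.0482 CPM in Arid2-labelled replicate 3. The Smarcb1-labelled libraries again lay above every other library, with wild-type replicate 2 the nearest.

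Casr differed from the other 2 genes in that it stood at 8.13 CPM or more in every library. Wild-type replicates 1, 2 and 3 read 28.7, 107 and 8.13 CPM, Arid2-labelled ones 33.9, 36.3 and 10.5 CPM and Smarcb1-labelled ones 172, 145 and 203 CPM. Wild-type replicate 3 held 274 Casr counts beside 1 count of Pth and 0 of Gcm2, and Arid2-labelled replicate 3 held 651 Casr counts beside 8 of Pth and 0 of Gcm2. C-cell genes were present in those libraries: Calca, the calcitonin gene, stood at 1863 CPM in wild-type replicate 3 and 3244 CPM in Arid2-labelled replicate 3, within the range of 1348 to 4749 CPM of the other 7. The part of C cells or other cells in the remaining Casr counts was not tested.

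**Figure D1:**
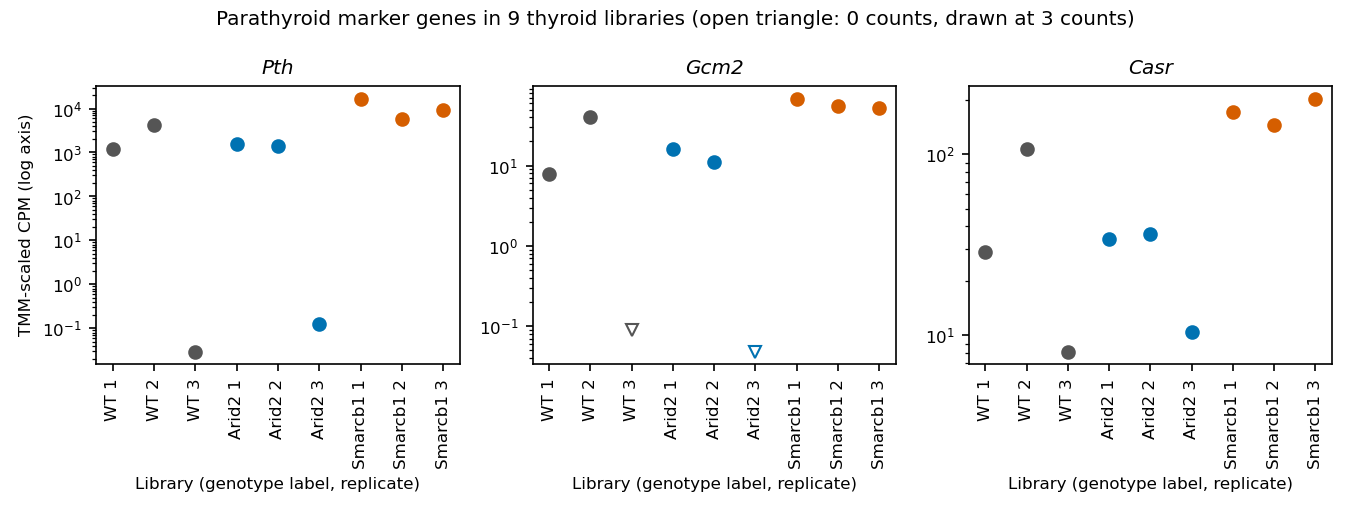
Level of each gene (TMM-scaled CPM, log axis) in every library, 1 point per library and colours by genotype label; open triangles mark 0 counts, drawn at the level of 3 counts. Smarcb1-labelled libraries are highest for all 3 genes, and wild-type replicate 3 and Arid2-labelled replicate 3 are lowest, with Casr still at 8.13 and 10.5 CPM there.

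By group the order of mean levels was Smarcb1-labelled, wild type, Arid2-labelled for each gene, and the wild-type and Arid2-labelled libraries overlapped for all 3. Pth stood at 10650 ± 5553 CPM (mean ± SD, n = 3) in the Smarcb1-labelled libraries, 1790 ± 2148 in wild type and 989 ± 858 in the Arid2-labelled libraries. Gcm2 stood at 58.5 ± 8.68, 16.2 ± 21.6 and 9.04 ± 8.18 CPM in the same order, and Casr at 173 ± 29.2, 47.9 ± 52.2 and 26.9 ± 14.3 CPM. In wild type the SD exceeded the mean for all 3 genes.

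Compared with wild type, the Smarcb1-labelled libraries were all higher for 3 of the 3 genes, and 17.1% of the 17079 tested genes had every Smarcb1-labelled library above every wild-type library. The differences did not pass the test across all genes (edgeR quasi-likelihood test with Benjamini-Hochberg adjustment, adjusted p under 0.05). The log2 fold change was 2.57 for Pth (SE 2.33, adjusted p = 0.49), 1.85 for Gcm2 (SE 1.55, adjusted p = 0.455) and 1.85 for Casr (SE 0.78, adjusted p = 0.161). Thus 0 of 3 members were called, where 7.90% of all tested genes were. Casr alone passed an unadjusted threshold of 0.05 in the edgeR fit. Without wild-type replicate 2, the wild-type library with the highest levels, Casr was called (3.23, SE 0.68, edgeR adjusted p = 0.0472), and the folds of Pth and Gcm2 became 4.15 and 3.89. By limma-voom they were 7.32 and 5.08 on the log2 scale, and did not pass either. Exact two-sided permutation tests of log2(CPM + 1) gave p = 0.1 for each gene, the smallest that 3 against 3 can give.

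Compared with the Arid2-labelled libraries, the Smarcb1-labelled libraries were all higher for 3 of the 3 genes as well, against 18.3% of tested genes. The log2 fold change was 3.43 for Pth (SE 2.41, adjusted p = 0.332), 2.69 for Gcm2 (SE 1.6, adjusted p = 0.256) and 2.69 for Casr (SE 0.81, adjusted p = 0.0511). Again 0 of 3 members were called by edgeR, where 16.3% of tested genes were, and Casr alone had an unadjusted p under 0.05. Casr was called under 7 of 20 alternatives, among them the DESeq2 Wald test (2.68, SE 0.89, adjusted p = 0.0152) and the edgeR fit without wild-type replicate 2 (adjusted p = 0.0271) or 3 (0.0275). By limma-voom the log2 fold changes of Pth and Gcm2 were 7.21 and 5.44, and did not pass. The exact permutation p was 0.1 for each gene.

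Arid2-labelled and wild-type libraries were not distinguished. The log2 fold change was -0.86 for Pth (SE 2.21, adjusted p = 0.89), -0.84 for Gcm2 (SE 1.53, adjusted p = 0.838) and -0.83 for Casr (SE 0.77, adjusted p = 0.664), by edgeR. None of the 3 had an unadjusted p under 0.05 and 0 were called, against 0.556% of tested genes. The sign turned for all 3 genes without wild-type replicate 2, to 0.72, 1.20 and 0.55. The standard errors leave room for large differences either way, and each group holds 1 library with almost no Pth. The exact permutation p was 1 for each gene.

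Both libraries with almost no Pth can be set aside, a choice made on the level of the gene itself and so a description. The Smarcb1-labelled against wild-type log2 fold changes were then 1.92 for Pth (SE 0.62), 1.19 for Gcm2 (SE 0.60) and 1.28 for Casr (SE 0.50), and the standard error of Pth was smaller than with all 9 libraries. Against the Arid2-labelled libraries they were 2.83 (SE 0.65), 2.10 (SE 0.62) and 2.29 (SE 0.52). None passed (edgeR adjusted p from 0.0755 to 0.285 over these 6 values).

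Ratios between the 3 genes varied less across the 7 libraries that held them than the levels did. For every 100 Pth counts there were 2.39 and 2.57 Casr counts in wild-type replicates 1 and 2, 2.21 and 2.53 in Arid2-labelled replicates 1 and 2, and 1.03, 2.45 and 2.18 in Smarcb1-labelled replicates 1, 2 and 3. In 6 libraries the ratio lay between 2.18 and 2.57 while Pth itself ranged from 1199 to 9307 CPM. Smarcb1-labelled replicate 1 stood apart, with an exact 95% counting interval of 1 to 1.05, below the interval of every other library, and these intervals hold counting error only, not the spread between libraries; this library had the highest Pth level, while its Casr level lay between those of the other Smarcb1-labelled libraries and its Gcm2 level was 1.32 times the lowest of them.

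Gcm2 counts per 100 Pth counts ranged from 0.408 in Smarcb1-labelled replicate 1 to 1.04 in Arid2-labelled replicate 1, a 2.55-fold range. Gcm2 counts per 100 Casr counts ranged from 25.6 in Smarcb1-labelled replicate 3 to 46.9 in Arid2-labelled replicate 1, a 1.83-fold range. In both ratios the Smarcb1-labelled values overlapped those of the other groups. Among the Smarcb1-labelled libraries the coefficient of variation was 52.1% for Pth, 14.9% for Gcm2 and 16.9% for Casr. The hormone gene therefore varied more within this group than the transcription factor and receptor genes did, which is given as a description of 3 libraries.

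**Figure D2:**
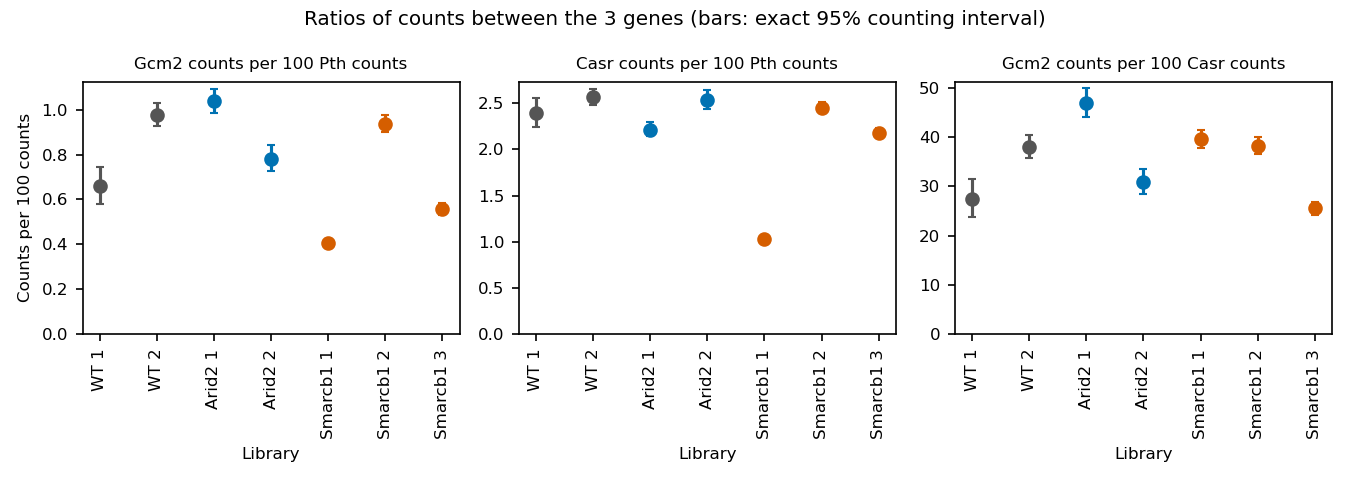
Counts of 1 gene per 100 counts of another in the 7 libraries that held Pth and Gcm2, 1 point per library with exact 95% counting intervals. Casr per 100 Pth lies between 2.18 and 2.57 in 6 libraries and at 1.03 in Smarcb1-labelled replicate 1.

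Levels of different genes were compared per kilobase of the longest annotated transcript. In the 7 libraries the Pth level per kilobase was 249 to 621 times that of Casr and 416 to 1060 times that of Gcm2. In wild-type replicate 3 and Arid2-labelled replicate 3 the order of Pth and Casr was the other way round, with Pth at 0.0233 and 0.0785 times the Casr level. The pairwise Pearson correlations of log2(CPM + 1) over the 9 libraries were 0.973 for Pth and Gcm2, 0.902 for Pth and Casr and 0.966 for Gcm2 and Casr. Without the 2 libraries of almost no Pth they were 0.951, 0.958 and 0.969. These are descriptions over libraries that fall into unequal clusters, and no p is given.

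The other genes of the parathyroid pathway list comprise 33 genes of development, calcium sensing, vitamin D and phosphate feedback, hormone processing, hormone reception and parathyroid tumours. In all, 29 passed the filter on low counts. Cyp24a1, Pth2r, Gprc6a and Pth2 did not; they had at most 8 counts in any library. In Smarcb1-labelled against wild-type thyroid 4 rose and 1 fell, and the median log2 fold change was 0.29 against 0.052 over all tested genes, where 2.15% of tested genes rose and 5.74% fell. Against the Arid2-labelled libraries 7 rose and 3 fell (median 0.28 against 0.003; 6.95% and 9.32% of tested genes). In Arid2-labelled against wild-type thyroid 0 were called by edgeR, 2 had an unadjusted p under 0.05 and DESeq2 called 1 higher.

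Of 9 development factors, 3 rose in Smarcb1-labelled against wild-type thyroid. Eya1, a coactivator in pharyngeal pouch development, read 9.22, 11.7 and 7.18 CPM in the wild-type libraries, and Smarcb1-labelled ones read 23.4, 21.6 and 23.6 CPM, with no overlap (log2 fold change 1.29, SE 0.20, edgeR adjusted p = 0.0095). It was called in 20 of 20 alternatives. Six4, a homeobox gene, rose by 0.97 (SE 0.22, adjusted p = 0.0314), and this call held in 10 of 20 alternatives. It was lowest in wild-type replicate 3. Of the 9 fits without 1 library, 2 kept the call, those without Arid2-labelled replicate 1 or Smarcb1-labelled replicate 2.

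Against the Arid2-labelled libraries 5 of the 9 rose. Pax9, a paired-box factor of the pharyngeal pouches, rose by 1.71 (SE 0.32, edgeR adjusted p = 0.0143), Eya1 by 1.61 and Six4 by 0.97. The call of Pax9 ended without Arid2-labelled replicate 3, and that of Six4 without Arid2-labelled replicate 1 or 3 or Smarcb1-labelled replicate 1 or 3. The call of Six4 ended also once the trend over GC content was taken out of each library (edgeR adjusted p = 0.0853). In wild-type replicate 3 and Arid2-labelled replicate 3, which held almost no Pth, Eya1 read 7.18 and 6.20 CPM. Six4 read 5.01 and 6.71 CPM there, and Pax9 6.97 and 8.05 CPM. The part of parathyroid cells in the levels and rises of these factors was not tested.

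Gata3, a zinc-finger factor that acts with Gcm2 in the gland, followed the members closely without being called. Wild-type replicates 1, 2 and 3 read 3.06, 10.4 and 0.178 CPM, Arid2-labelled ones 7.46, 3.13 and 0.209 CPM and Smarcb1-labelled ones 17.6, 18.3 and 18.1 CPM. Against wild type its fold change was 1.98 on the log2 scale (SE 1.20, edgeR adjusted p = 0.304). Pax1, a paired-box factor shared with the thymus, had the highest Arid2-labelled level, 7.24 CPM, in replicate 1, the library with the highest thymocyte markers; the part of thymus tissue in this was not tested.

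Among genes of vitamin D and phosphate feedback, Vdr, the vitamin D receptor through which calcitriol represses Pth, rose in the Smarcb1-labelled libraries. Wild-type replicates 1, 2 and 3 read 41.2, 80.4 and 24.8 CPM, Arid2-labelled ones 37.0, 40.5 and 29.0 CPM and Smarcb1-labelled ones 136, 110.5 and 164 CPM. The log2 fold change was 1.49 against wild type (SE 0.37, edgeR adjusted p = 0.0426), a call that held in 8 of 20 alternatives and in 2 of the 9 fits without 1 library, those without wild-type replicate 2 or Smarcb1-labelled replicate 2. Against the Arid2-labelled libraries it was 1.95 (SE 0.37, adjusted p = 0.0148), a call that ended only without Arid2-labelled replicate 3 among 20 alternatives. Kl, the klotho coreceptor for the phosphate hormone FGF23, read 239, 226 and 277 CPM in Smarcb1-labelled replicates 1, 2 and 3, 30.4, 160 and 0.801 CPM in the wild-type ones and 48.4, 43.7 and 1.32 CPM in the Arid2-labelled ones, and did not pass (1.95 against wild type, SE 1.40, edgeR adjusted p = 0.38).

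Genes of receptor signalling went the other way or did not pass. Ap2s1, an adaptor subunit that governs uptake of the calcium-sensing receptor and of many other cargoes, fell from 57.6 ± 3.14 to 33.8 ± 3.11 CPM (n = 3 each), or by -0.77 on the log2 scale (SE 0.11, edgeR adjusted p = 0.00658), and was called in 20 of 20 alternatives in both comparisons with the Smarcb1-labelled libraries. Gna11, a G protein subunit that couples to the receptor, did not pass (-0.35, SE 0.13, adjusted p = 0.127). Gnaq, a close relative, did not pass either (0.13, SE 0.11, adjusted p = 0.447). Gna12, which encodes another G protein subunit, fell against the Arid2-labelled libraries (-0.63, SE 0.14, adjusted p = 0.0221), and the value was -0.13 with the GC trend removed. That call ended also without Arid2-labelled replicate 2 or 3 or Smarcb1-labelled replicate 1. Wild-type replicate 3 and Arid2-labelled replicate 3 held almost no Pth. There Ap2s1 read 58.9 and 68.6 CPM, Gna11 70.9 and 77.3, Gnaq 92.3 and 74.3 and Gna12 78.5 and 93.6. The part of parathyroid cells in the levels of these genes was not tested.

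Of the 3 processing and storage genes none passed. Chga, which encodes the granule protein chromogranin A, read 4872, 6034 and 7117 CPM in Smarcb1-labelled replicates 1, 2 and 3, 735, 4884 and 32.9 CPM in the wild-type ones and 1526, 1205 and 29.5 CPM in the Arid2-labelled ones. Unlike Pth it overlapped between Smarcb1-labelled and wild-type libraries, because wild-type replicate 2 exceeded Smarcb1-labelled replicate 1. Furin (-0.73, SE 0.20, edgeR adjusted p = 0.0552) and Pcsk7 (-0.02, SE 0.10, adjusted p = 0.915) encode proprotein convertases. The 2 tested genes of the hormone's receptor and relative, Pth1r (-0.82, SE 0.36) and Pthlh (-0.52, SE 0.36), did not pass. Of 4 parathyroid tumour genes, Cdc73 rose (0.55, SE 0.13) and Ccnd1 fell (-0.96, SE 0.23) against the Arid2-labelled libraries, and 0 passed against wild type by edgeR (2 at an unadjusted p under 0.05); Cdc73 was at 0.12 with the GC trend removed. The calls of both ended without Arid2-labelled replicate 2 or 3 or Smarcb1-labelled replicate 1 or 3, and that of Cdc73 also without wild-type replicate 1. Mean Ccnd1 levels were 74.77 CPM in the Arid2-labelled libraries, 31.45 in wild type and 38.43 in the Smarcb1-labelled libraries. Its log2 fold change was 1.25 for Arid2-labelled against wild type (SE 0.23, edgeR adjusted p = 0.0527). For Smarcb1-labelled against wild type it was 0.29 (SE 0.23).

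**Figure D3:**
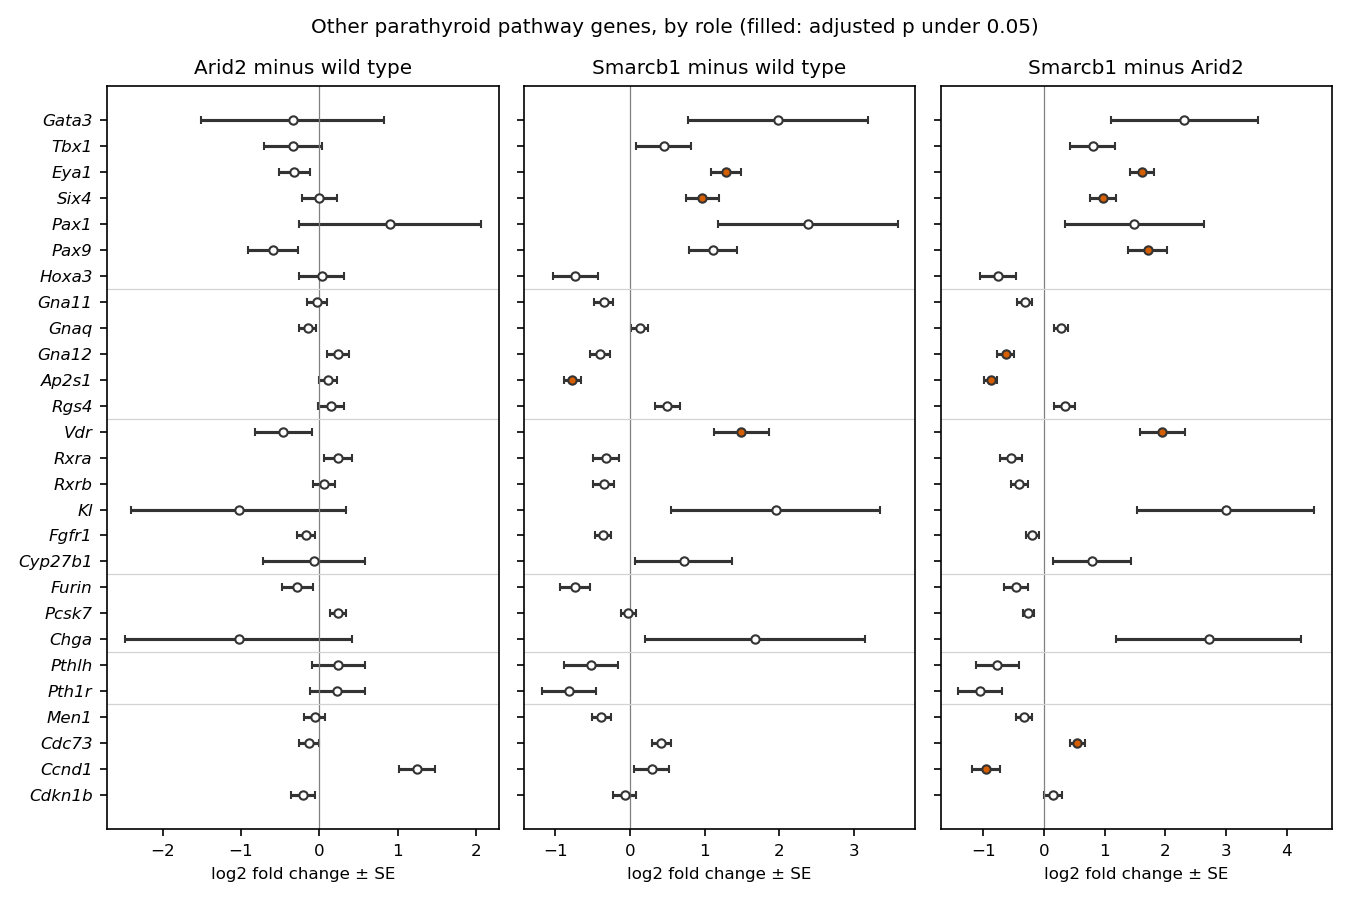
Log2 fold change with standard error (x axis) of tested pathway genes in 3 comparisons, ordered by role, with filled points for an adjusted p under 0.05. Gata3, Kl and Chga have large folds with wide errors in the Smarcb1-labelled comparisons, while Eya1 and Ap2s1 have narrow ones.

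Across all 17079 tested genes, likeness was measured as the Pearson correlation of log2(CPM + 1) with the mean of Pth, Gcm2 and Casr over the 9 libraries. In all, 40 genes, the 3 members included, had a correlation of at least 0.9 (0.234%), 87 genes had a correlation of -0.9 or lower, and the median over all tested genes was 0.009. The 10 most alike were Kl (0.996), the ammonia transporter gene Rhcg (0.994), Sycp2l (0.994), Chga (0.993), Rasal1 (0.983), a Ras regulator, Spink8 (0.98), a protease inhibitor, Pcyt1b (0.971), an enzyme of phosphatidylcholine synthesis, Gata3 (0.97), the channel gene Mcoln3 (0.967) and Cryba2 (0.962). The members themselves had 0.991 for Pth, 0.994 for Gcm2 and 0.951 for Casr. Each is part of the mean it was compared with, so these values are not comparable with those of other genes.

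Rhcg, like Gcm2, had 0 counts in both libraries with almost no Pth. Wild-type replicates 1, 2 and 3 read 15.5, 93.3 and 0 CPM, Arid2-labelled ones 25.6, 21.0 and 0 CPM and Smarcb1-labelled ones 141, 151 and 147 CPM. Sycp2l had 0 and 2 counts in wild-type replicate 3 and Arid2-labelled replicate 3 and 255 to 3275 counts elsewhere. The highest of the 10 genes' fold changes against wild type was 2.76 for Pcyt1b (SE 1.14), and none of the 10 was called in any of the 3 comparisons by edgeR. Pcyt1b had an unadjusted p under 0.05 against both groups, and the others had none.

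Without the 2 libraries with almost no Pth the correlations of the 10 genes lay between 0.93 and 0.994, with Sycp2l at 0.994. Their order moved: 1 of the 10 was still among the 10 most alike, and Pth, Gcm2 and Casr themselves ranked at 18, 19 and 13. By Spearman's rank correlation 2 of the 10 were still among the 10 most alike, and Sycp2l and Pcyt1b had a rho of 1. The 5 least alike genes, Msra, Psph, Uqcrfs1, Fdps and Rasl2-9-ps, had correlations from -0.979 to -0.972 and, in those 7 libraries, narrow ranges of 1.13-fold to 1.34-fold for the first 4 and 3.08-fold for Rasl2-9-ps, which had 4 to 35 counts per library.

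**Figure D4:**
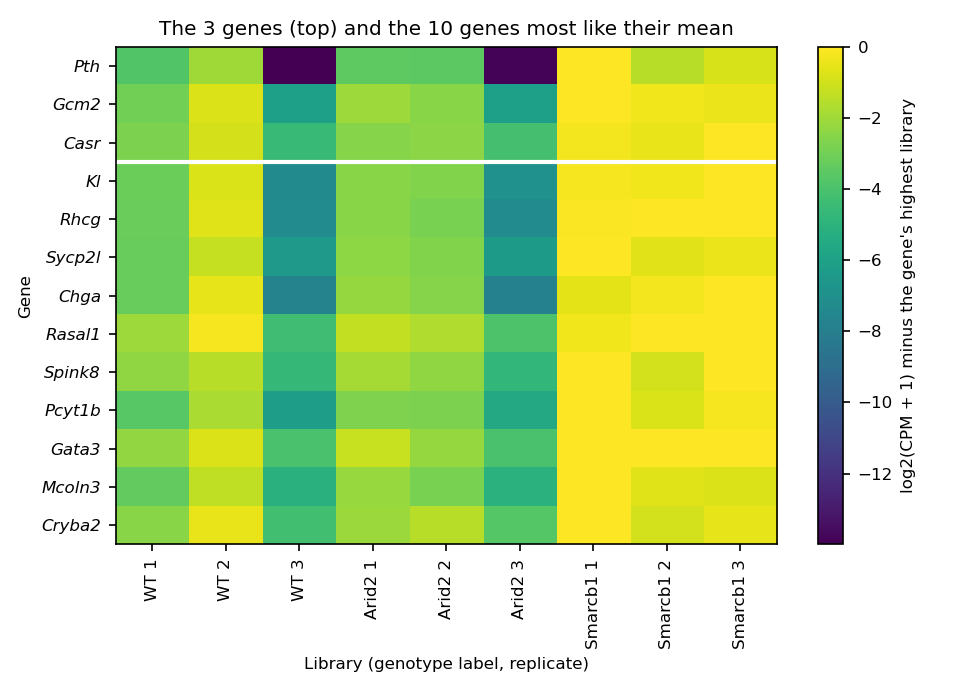
Level of the 3 members (top rows) and the 10 most alike genes (lower rows) in each library, as log2(CPM + 1) minus the value of the gene's highest library. Wild-type replicate 3 and Arid2-labelled replicate 3 have the lowest values in every row, and a Smarcb1-labelled library has the highest value in each.

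Marker lists of the other cell types that the dissected tissue could hold did not follow the members as a whole. The summed level of 12 follicular cell genes ranged from 229400 to 325600 CPM, and the lowest value was that of Smarcb1-labelled replicate 2. Tg made up most of this sum in every library, so the sum says little about the other genes. Of 11 tested follicular genes, 1 fell and 0 rose in Smarcb1-labelled against wild-type libraries. Against the Arid2-labelled libraries 2 fell and 0 rose. Foxe1 fell in both, by -2.19 (SE 0.19, edgeR adjusted p = 0.00102) and -1.48 (SE 0.19, adjusted p = 0.0047) on the log2 scale. The 9 C-cell genes summed to 2308 to 5553 CPM in wild type, 1721 to 3797 in the Arid2-labelled libraries and 2702 to 3278 in the Smarcb1-labelled libraries, with the groups overlapping and 0 of 9 called in each comparison. Their Calca did not pass against wild type (-0.35, SE 0.41, edgeR adjusted p = 0.602). Thymocyte genes summed to 1298 CPM and 225.2 CPM in Arid2-labelled replicate 1 and Smarcb1-labelled replicate 2, whose Pth levels, 1532 and 5892 CPM, were the highest and the lowest of their own groups. Without these 2 libraries the Smarcb1-labelled against wild-type log2 fold changes were 2.79 for Pth, 1.82 for Gcm2 and 1.90 for Casr. The thymic epithelial list summed to 151.6 and 102.7 CPM in the same 2 libraries, with Psmb11 at 12.1 and 2.35 CPM, and to 7.68 to 26.7 CPM elsewhere.

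Brown fat genes were highest where Pth was lowest: the 8 genes summed to 3042 CPM in wild-type replicate 3 and 2407 CPM in Arid2-labelled replicate 3, and to 631.2 to 1555 CPM in the other 7 libraries. Skeletal muscle genes summed to 456.2 and 1887 CPM in those 2 libraries and to 24.1 to 1178 CPM in the others, and so did not separate them. Blood genes were lowest in the Smarcb1-labelled libraries, where the 5 genes summed to 116.5 to 213 CPM against 307.5 to 1475 CPM in wild type and 266.7 to 699 CPM in the Arid2-labelled libraries, and 2 of 5 fell against wild type, where 5.74% of tested genes fell. In the same comparison 2 of 6 fibroblast genes fell, and 2 of 6 endothelial genes rose, where 2.15% of tested genes rose. The part of dissection or of adjoining tissue in the differences between genotypes was not tested.

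**Figure D5:**
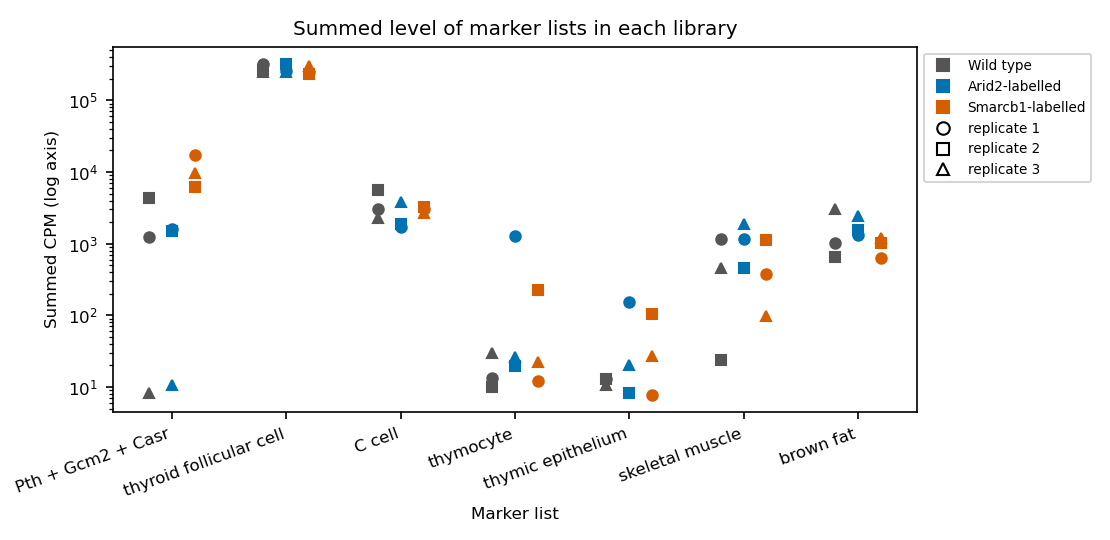
Summed level (CPM, log axis) of the 3 members and of 6 marker lists in each library, colours by genotype label and shapes by replicate number, which does not pair libraries. The members span the widest range, with wild-type and Arid2-labelled replicates 3 lowest. The follicular list runs from 229400 to 325600 CPM and the C-cell list from 1721 to 5553 CPM.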

How the data were processed

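RNA from flash-frozen thyroids was sequenced as TruSeq libraries, per the labels' protocols. The authors deposited 1 table of raw read counts per gene, not normalized, with a column for each of 9 libraries. Per the submitters' processing notes, the tools were DESeq2, HTSeq 0.6.1 and STAR 2.4 and the build mm9, with no role or order given. Whether strand was used is not given in the sources used here. Groups came from the genotype labels.

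Counts were tested with edgeR 4.0.16 (quasi-likelihood, TMM scaling, filterByExpr) in R 4.3.3, all 9 libraries in 1 fit of 3 group means with 6 residual degrees of freedom; 17079 genes passed, all 3 members among them, and p-values were adjusted by Benjamini-Hochberg over all of them. The members pass the filter through the libraries where they are high. DESeq2 1.42.0 and limma 3.58.1 (voom) were alternatives. Simulated counts with known changes were used to test the edgeR step, and the outcome is not reported here. Each simulated gene had 1 mean level over the libraries apart from the set changes. Libraries that almost lack a gene, as for Pth and Gcm2, were not built in. Transcript lengths and GC content came from GENCODE M21 (GRCm38) by symbol, for 97.3% of tested genes, and upstream sequences from RefSeq (GRCm38.p6). Exact permutation tests and Clopper-Pearson intervals used SciPy 1.17.1.

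Named genes were the members, both targeted genes, the called genes of the pathway list and up to 3 others per role by level. The 10 genes most and 5 least like the members' mean were named too, as were up to 3 genes per cell-type list by level. Psmb11, Foxe1 and the untested pathway genes fall outside this rule and were chosen after their values were seen. The members and lists were chosen with earlier results of these data known. Some genes of the lists count in the totals and are not reported here by name.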

Additional observations from a re-analysis of the deposited data

How the results depend on the processing

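Each member's fold change was recomputed under 20 alternatives: other scalings, filters, tests and samples, a GC correction and leaving out each library. The 2 comparisons with the Smarcb1-labelled libraries kept their direction for all 3 genes in all 20, but the sizes moved. Every Smarcb1-labelled library lay above every other library for these genes, so leaving out libraries could hardly turn the direction, and its being kept is no separate support. Against wild type the log2 fold change ran from 1.92 to 7.32 for Pth (main 2.57) and from 1.19 to 5.08 for Gcm2 (1.85), and against the Arid2-labelled libraries from 2.82 to 7.21 (3.43) and from 2.09 to 5.44 (2.69). The highest of each was that of limma-voom. That fit compares mean log levels and edgeR compares mean counts, so the 2 kinds of fold are not the same measure. The difference in mean log2(CPM + 1) against wild type was 5.81 for Pth and 3.04 for Gcm2. Casr against the Arid2-labelled libraries passed with upper-quartile scaling (log2 fold change 2.72), a filter of 1 CPM in 3 libraries (2.69), only the 6 libraries compared (2.69), DESeq2 (2.68) and limma-voom (2.86). For Pth between Arid2-labelled and wild-type libraries limma-voom gave 0.11. The cause was not tested.

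Leaving out 1 library at a time, the Arid2-labelled against wild-type values ran from -1.44 to 0.72 for Pth, -1.53 to 1.20 for Gcm2 and -1.33 to 0.55 for Casr. Smarcb1-labelled against wild type, they ran from 1.99 to 4.15, 1.26 to 3.89 and 1.35 to 3.23. Smarcb1-labelled against Arid2-labelled, they ran from 2.82 to 3.89, 2.09 to 3.38 and 2.29 to 2.96.

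The counts of all genes called depended on the fit. Over the alternatives they ran from 5 to 900 (main 95) for Arid2-labelled against wild type, 344 to 2782 (1349) for Smarcb1-labelled against wild type and 237 to 4411 (2779) for Smarcb1-labelled against Arid2-labelled libraries. DESeq2 gave 900, 2782 and 4348, and removal of the GC trend gave 228, 398 and 1063. Pathway genes that rose ran from 1 to 6 and 1 to 7 in the comparisons with the Smarcb1-labelled libraries, and those that fell from 1 to 5 and 1 to 9. No paired analysis was possible because the labels give no replicate numbers or shared source. The effect of sequencing depth on these comparisons was not tested.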
